A study of Homo sapiens with 8 samples.

Results

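The genes described are 10 markers and regulators of blood stem and progenitor cells, namely the surface receptors and antigens CD34, KIT and FLT3, the protease inhibitor SPINK2, and the transcription regulators GATA2, MEIS1, MYB, ERG, LMO2 and MYCN. They were taken by gene symbol, with every probe set (a group of array probes read as 1 value) that the platform annotation gives to 1 of them alone. This gave 36 probe sets for the 10 genes, among 18132 genes in all. A gene is represented by its brightest probe set. All 10 genes passed the level filter, a log2 intensity of at least 6 on some array, which 11529 genes passed, while 25 of the 36 probe sets did so.

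The cells were KBM7, a chronic myeloid leukaemia line that is nearly haploid, so that 1 gene-trap insertion can silence a gene. The IFN-gamma experiment held WT replicate 1, WT cells after 6 hours in 100 ng/ml IFN-gamma, and JAK2 mutant cells without and with the same dose. The TNF-alpha experiment held WT replicate 2, WT cells after 6 hours in 10 ng/ml TNF-alpha, and TNFRSF1A mutant cells without and with that dose. JAK2 is a kinase of the IFN-gamma receptor, and TNFRSF1A is the main TNF-alpha receptor. Unstimulated WT cells had 2 arrays, each other condition had 1, and the labels do not say whether these were separate cultures or how many clones stand behind a mutant. A difference between a mutant and WT therefore belongs to these cells and cannot be told apart from a difference between clones. Unless a fit is named, each value of change is the log2 difference between 2 arrays and has no p-value. A gene is called higher or lower from 2-fold upward, which is 1 on the log2 scale, and for an unstimulated mutant only when it passes in the same direction against both WT arrays. Between both WT arrays the differences of all compared genes had an SD of 0.38, called the spread here. Each array carries 23 background probe sets. Readings under their upper quartile, at 5.76 to 6.04 by array, are said to be in the background range. A difference given as at least some value is counted from that quartile, which is no strict limit.

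Haematopoietic stem and progenitor cells keep a small network of transcription factors active, in which GATA2, ERG and LMO2 bind together with TAL1, LYL1, RUNX1 and FLI1 at shared enhancers. MEIS1 is a homeodomain partner of HOX proteins, MYB sustains progenitor growth, and MYCN is a MYC family factor that also acts in early blood cells. KIT and FLT3 are receptor tyrosine kinases for stem cell factor and FLT3 ligand, CD34 is the sialomucin used to enrich stem cells, and SPINK2 is a small Kazal-type inhibitor transcribed in primitive blood cells.

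The array levels of the trapped genes followed the labels. The JAK2 probe set read 5.08 and 5.32 in the JAK2 mutant, both in the background range, against 6.14 to 6.81 elsewhere. The TNFRSF1A probe set read 6.56 and 6.55 in the TNFRSF1A mutant against 9.23 to 9.83 elsewhere. Median array intensities lay between 63.9 and 66.9. The actin 3' to 5' ratio, which rises as RNA degrades, was 5.74 and 6.47 in the JAK2 mutant, 4.51 and 5.53 in the TNFRSF1A mutant and 3.27 to 4.81 in WT. Its part in the differences of the mutants was not tested. Markers of mature blood cells were read against the level filter, which 11529 of all 18132 genes passed. It was passed by 4 of 12 granulocyte and monocyte genes, 4 of 11 erythroid genes and 4 of 6 megakaryocyte genes. Of the other lists, 3 of 6 B cell genes and 3 of 6 T and NK cell genes passed. So did 1 of 5 mast cell and basophil genes and 1 of 4 endothelial genes. A list gene without a probe set of its own counts here as not passed.

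The region around the transcription start is shown for the genes called in a mutant, SPINK2 and MYCN, and for KIT and ERG, which with MYCN had the lowest IFN-gamma values in WT. Each sequence runs 5′ to 3′ on the gene's own strand from 250 bases before the start to 50 after it, from RefSeq on GRCh38.p14, whose table held 14 such windows for 9 of the 10 genes. Capitals mark matches, on either strand, to 5 motifs. ISRE is the interferon-stimulated response element. The letters CACGTG are the E-box of MYC family factors. GATA factors were searched as the letters AGATAA. ETS factors, which include ERG, were searched as the letters CCGGAA. The MYB motif was searched as the letters AACGG. These motifs do not exclude one another and may overlap. The windows lie at chr4:56821652-56821951 on the minus strand for SPINK2, chr2:15940300-15940599 on the plus strand for MYCN, chr4:54657707-54658006 on the plus strand for KIT and chr21:38498428-38498727 on the minus strand for ERG.
SPINK2: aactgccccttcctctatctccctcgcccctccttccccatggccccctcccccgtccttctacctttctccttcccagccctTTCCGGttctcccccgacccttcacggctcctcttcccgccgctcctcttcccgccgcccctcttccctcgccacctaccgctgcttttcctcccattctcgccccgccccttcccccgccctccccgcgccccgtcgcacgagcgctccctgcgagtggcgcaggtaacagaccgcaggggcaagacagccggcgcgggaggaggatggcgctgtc
MYCN: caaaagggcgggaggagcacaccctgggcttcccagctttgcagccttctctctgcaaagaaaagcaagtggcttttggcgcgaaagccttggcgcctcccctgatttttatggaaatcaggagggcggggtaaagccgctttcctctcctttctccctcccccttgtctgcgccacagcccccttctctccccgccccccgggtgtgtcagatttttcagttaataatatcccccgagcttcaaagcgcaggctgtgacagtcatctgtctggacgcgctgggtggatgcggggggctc
KIT: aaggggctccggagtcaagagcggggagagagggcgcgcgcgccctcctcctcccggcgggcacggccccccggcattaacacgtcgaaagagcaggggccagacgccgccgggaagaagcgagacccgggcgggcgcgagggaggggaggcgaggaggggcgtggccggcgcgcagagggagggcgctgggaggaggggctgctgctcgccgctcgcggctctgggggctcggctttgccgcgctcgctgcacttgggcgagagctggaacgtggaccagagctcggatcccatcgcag
ERG: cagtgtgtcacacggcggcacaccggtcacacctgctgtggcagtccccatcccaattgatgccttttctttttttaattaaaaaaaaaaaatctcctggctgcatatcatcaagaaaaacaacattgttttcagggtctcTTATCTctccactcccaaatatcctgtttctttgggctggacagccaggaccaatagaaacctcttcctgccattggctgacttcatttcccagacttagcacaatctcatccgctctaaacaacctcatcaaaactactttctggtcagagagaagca

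The SPINK2 window held the ETS letters from position -167, and the ERG window the GATA letters from position -109, counted from the start site. In the other SPINK2 window the same ETS letters begin at position 2. The ERG windows that begin at chr21:38584896 and chr21:38660618 held none of the 5 motifs. KIT and MYCN held none of the 5 motifs. None of the 14 windows of these genes held the ISRE letters, which occur in 3.57% of all 35116 promoter windows. The ETS letters were in 3 of the 14 windows (SPINK2, whose 2 windows overlap, and MEIS1) against 17.2% of all windows. The GATA letters were in 2 overlapping ERG windows against 10.3%, the MYB letters in 1 GATA2 window against 19.7%, and the E-box in the FLT3 window against 7.26%. A match of letters is no evidence that a factor binds there.

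The genes differed in how far their level moved over the 8 arrays. MEIS1 spanned 0.49, MYB 0.64, ERG 0.76, CD34 0.79 and LMO2 0.85, each under 2-fold between the lowest and the highest array. KIT spanned 1.07, FLT3 1.27, SPINK2 2.15, GATA2 2.26 and MYCN 3.06, the last with its low end in the background range. In most of this second group 1 clone or 1 experiment stood apart from the other arrays, while in KIT several arrays made up the range. Every brightest probe set but that of MYCN stayed above the background range on all 8 arrays, and for MYCN 3 arrays lay within it.

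**Figure D1:**
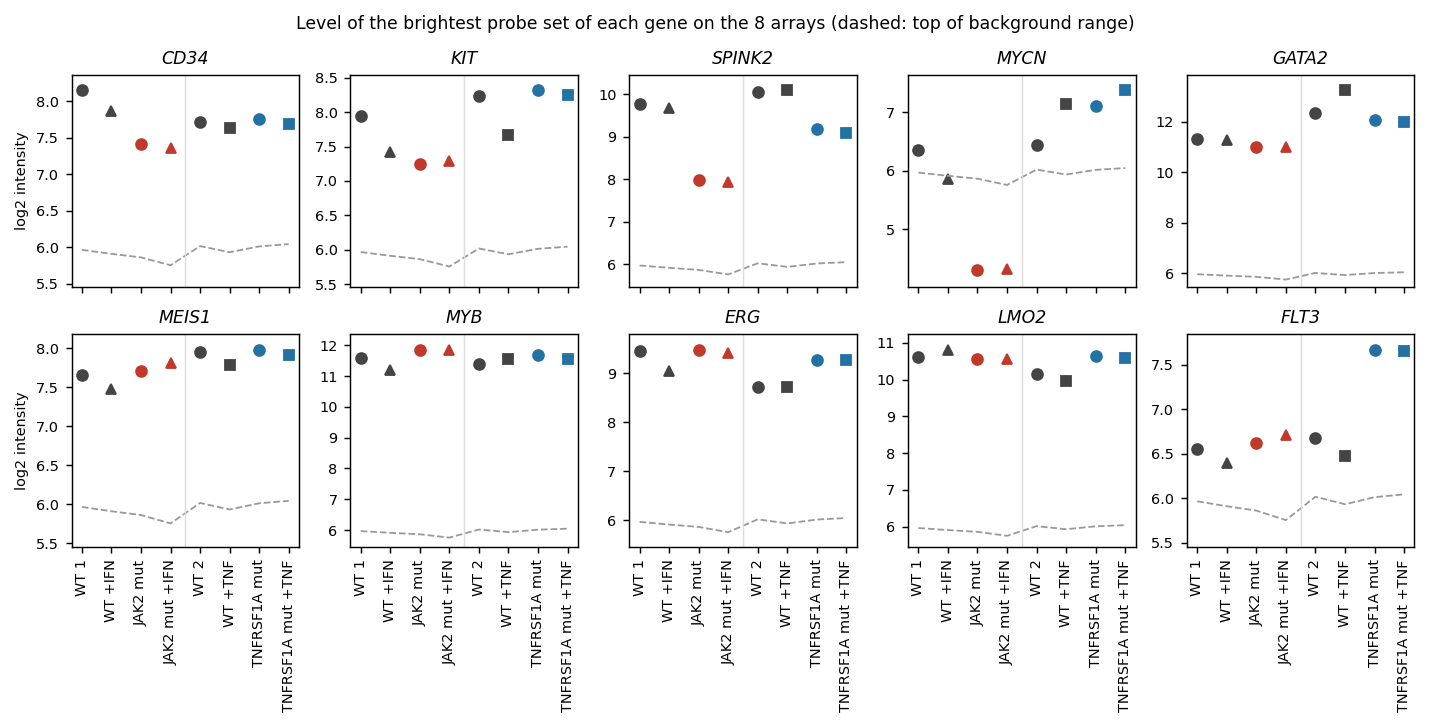
Log2 intensity (vertical axis) of the brightest probe set of each of the 10 genes on the 8 arrays (horizontal axis), with circles for unstimulated cells, triangles for IFN-gamma and squares for TNF-alpha, and with WT in grey, the JAK2 mutant in red and the TNFRSF1A mutant in blue. SPINK2 and MYCN are lowest in both JAK2 mutant arrays, FLT3 is highest in both TNFRSF1A mutant arrays, and the dashed line is the top of the background range.

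In the unstimulated JAK2 mutant, 2 of the 10 genes were called lower than both WT arrays, SPINK2 and MYCN, where 1.51% of all compared genes were called lower, and 0 were called higher, where 0.156% were. SPINK2 had log2 levels of 7.98 and 7.95 in the JAK2 mutant without and with IFN-gamma, against 9.77 and 9.68 in WT of the same experiment, 10.06 and 10.10 in WT of the TNF-alpha experiment, and 9.19 and 9.10 in the TNFRSF1A mutant. Both JAK2 mutant arrays thus lay below all 6 other arrays. SPINK2 had fallen 3.44-fold against WT replicate 1, a difference of -1.78, and 4.23-fold against replicate 2, a difference of -2.08. On the arrays with IFN-gamma, which the unstimulated comparison did not use, the difference was -1.74 (3.33-fold). SPINK2 has a single probe set here, so no other set could be read beside it.

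MYCN read 4.31 and 4.33 in the JAK2 mutant without and with IFN-gamma, 6.34 and 5.86 in WT of that experiment, 6.43 and 7.13 in WT without and with TNF-alpha, and 7.10 and 7.37 in the TNFRSF1A mutant. The JAK2 mutant values were again below every other array, but they lay in the background range. The measured differences from WT replicates 1 and 2 were -2.04 and -2.13. Counted from the top of the background range they were only at least 0.48 and 0.57. With IFN-gamma both WT and mutant were in that range, so no fold is given. Of the other MYCN probe sets, the next brightest gave smaller differences of -0.19 and -0.25, with the mutant above the background range. The remaining 2 were in the background range on the JAK2 mutant and unstimulated WT arrays. Against the TNFRSF1A mutant, where MYCN stood higher, the JAK2 mutant was lower by at least 1.24.

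The surface genes KIT and CD34 had values below 0 in the JAK2 mutant without being called. KIT differed by -0.70 from WT replicate 1 and by -0.98 (1.97-fold) from replicate 2, but by only -0.13 between the arrays with IFN-gamma. CD34 differed by -0.74, -0.31 and -0.50 in the same comparisons, and WT replicate 1 was the highest of all 8 CD34 arrays. GATA2 had -0.32 and -1.36, since the WT arrays themselves differed in GATA2 by 1.04. MYB had the opposite sign, with 0.27 and 0.44, and 0.63 between the arrays with IFN-gamma; its second probe set gave 0.25, 0.44 and 0.74. MEIS1 (0.04 and -0.24), LMO2 (-0.07 and 0.39) and FLT3 (0.07 and -0.06) had both signs against the 2 controls. ERG had 0.02 and 0.76. Over the 10 genes the median, taking the mean of both controls, was -0.31, against 0.04 over all compared genes.

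With IFN-gamma on both sides, SPINK2 and MYCN were again the 2 of 10 genes past 2-fold between the JAK2 mutant and WT, where 3.02% of all genes were, but the MYCN value rests on the background range. A limma fit of genotype plus cytokine over all 8 arrays treats the 2 arrays of a clone as its replicates. It assumes the same effect of a cytokine in WT and mutant, so a response of WT alone enters the genotype estimates. This limma fit gave -1.87 ± 0.13 (SE) for SPINK2 with an adjusted p of 0.00291. It also called MYCN lower, but from mutant readings in the background range, so that no fitted size is given and the bounds of at least 0.48 and 0.57 stand. That fit called 5.06% of all genes in the JAK2 mutant. KIT (-0.51, adjusted p = 0.161), CD34 (-0.50, adjusted p = 0.110) and MYB (0.46, adjusted p = 0.0837) were not called by it. A limma fit of the 7 conditions, whose spread comes from the WT pair alone, called 0 of the 10 genes, with an adjusted p of 0.106 for SPINK2.

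**Figure D2:**
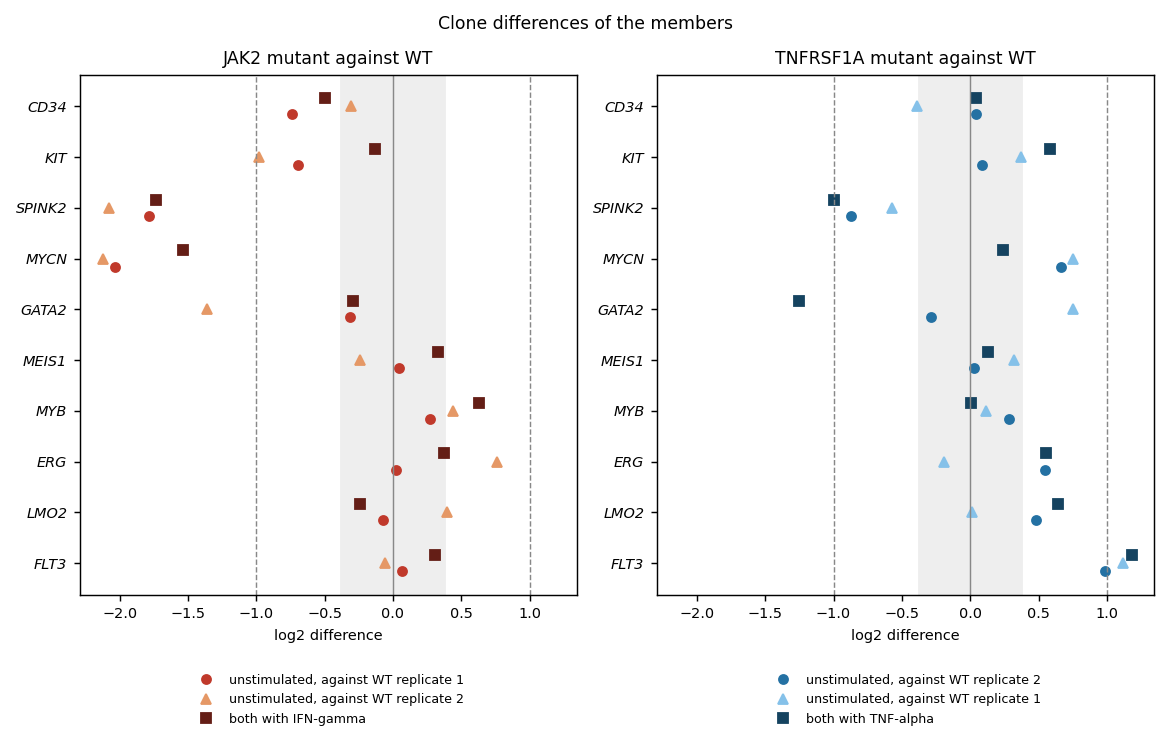
Log2 difference (horizontal axis) of the JAK2 mutant (left) and the TNFRSF1A mutant (right) from WT for each gene, with circles and triangles for the unstimulated mutant against either WT array and squares for the arrays with cytokine. The grey band is the spread of 0.38 to either side and the dashed lines mark 2-fold; SPINK2 and MYCN lie beyond the line in all 3 comparisons on the left, MYCN with mutant readings in the background range, and FLT3 runs from 0.99, just short of the line, to 1.18 on the right.

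In the TNFRSF1A mutant the gene that stood apart was FLT3. Its log2 levels were 7.67 and 7.66 in the TNFRSF1A mutant without and with TNF-alpha, 6.68 and 6.48 in WT of that experiment, 6.55 and 6.40 in WT of the IFN-gamma experiment, and 6.62 and 6.71 in the JAK2 mutant. The 2 TNFRSF1A mutant arrays lay above all 6 others, the highest of which read 6.71. FLT3 was higher by 0.99 (1.98-fold) than WT replicate 2 and by 1.11 (2.17-fold) than replicate 1, so it just missed the call, and by 1.18 (2.27-fold) between the arrays with TNF-alpha. The fit of genotype plus cytokine (limma) gave 1.13 ± 0.11 (SE) with an adjusted p of 0.0185, where it called 0.59% of all genes. The 7-condition limma fit gave 1.05 with an adjusted p of 1.00. FLT3 has 1 probe set here.

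By the rule of both controls, 0 of the 10 genes were called in the unstimulated TNFRSF1A mutant, where 0.416% of all genes were called lower and 0.147% higher. SPINK2 had values of -0.87 and -0.57 against WT replicates 2 and 1 and of -0.998 with TNF-alpha, the same sign as in the JAK2 mutant but a smaller size. Its adjusted p in the genotype plus cytokine fit (limma) was 0.113. MYCN had the sign opposite to that in the JAK2 mutant, at 0.67 and 0.75. LMO2, a bridge between the factors of the network, had 0.48 and 0.01, ERG 0.55 and -0.19, and KIT 0.09 and 0.37. MYB (0.28 and 0.12) and MEIS1 (0.03 and 0.32) stayed within the spread against both, while CD34 had 0.04 and -0.39. The median over the 10 genes, with the mean of both controls, was 0.21, against 0.02 over all genes. Between the arrays with TNF-alpha, FLT3 was called higher and GATA2 lower, at -1.25, where 1.22% of all genes were called.

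With IFN-gamma in WT, 0 of the 10 genes were called against WT replicate 1, where 0.607% of all genes were, yet 9 of the 10 had values below 0. Over all compared genes 57.8% were below 0. The median of the 10 was -0.23, against -0.02 over all genes. KIT, MYCN and ERG were lower by more than the spread of 0.38, which 1.03% of all genes were. In the JAK2 mutant given the same dose, 0 of the 10 were called, where 0% of all genes were. There 4 of the 10 were below 0, where 49.6% of all genes were. The values ran from -0.05 to 0.11 with a median of 0.02. In 9 of the 10 genes the WT value was below that of the JAK2 mutant, and LMO2 was the exception. The share of all genes for this count was not computed. The 10 genes were chosen with earlier results of these data known, so the count is a description. The 7-condition limma fit called no gene for the difference between the responses. Its control is the mean of both WT arrays, while the values above use WT replicate 1 alone. Its fitted differences were above 0 for ERG (0.02) and LMO2 (0.40) and below 0 for the other members. With 1 array in each condition but unstimulated WT, it cannot decide whether the responses differ.

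KIT had the lowest value with IFN-gamma. Its log2 level was 7.95 in WT replicate 1 and 7.43 with IFN-gamma, but 7.25 and 7.29 in the JAK2 mutant without and with it. The differences were -0.52 in WT and 0.04 in the mutant, and the mutant read lower before IFN-gamma than WT did after it. Against WT replicate 2, at 8.23, the WT value was -0.80. The other 2 KIT probe sets were in the background range on all 8 arrays.

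MYB, whose protein drives progenitor genes, gave the same picture in both of its probe sets. The brighter read 11.57 in WT replicate 1, 11.20 with IFN-gamma, and 11.85 and 11.84 in the JAK2 mutant without and with it. Its differences were -0.37 in WT and -0.01 in the mutant, and the second set gave -0.49 and -0.01. Against WT replicate 2 the MYB sets gave -0.20 and -0.31. The WT array with IFN-gamma was the lowest of the 8 in both sets.

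ERG, an ETS factor, read 9.46 in WT replicate 1 and 9.05 with IFN-gamma, against 9.48 and 9.43 in the JAK2 mutant, so that the differences were -0.40 and -0.05. The next 2 ERG probe sets by level gave -0.50 and -0.43 in WT, and 0.21 and -0.05 in the mutant. The ERG sets of ranks 4 and 5 gave -0.21 and -0.31 in WT, and -0.03 and 0.92 in the mutant. In the mutant the set of rank 5 rose from 6.40 to 7.32, above the background range on both arrays. ERG was thus not flat in the mutant on every set. Against WT replicate 2, which read 8.72 on the brightest set, the value of ERG turned to 0.33. MYCN had -0.48, of which at least 0.43 holds above the background range, with 0.02 in the mutant, where both arrays were in that range. The next brightest MYCN set gave only -0.20 in WT, within the spread, and 0.11 in the mutant. CD34 had -0.29 in WT and -0.05 in the mutant, with 0.14 against WT replicate 2. MEIS1 had -0.18, FLT3 -0.15, SPINK2 -0.09 and GATA2 -0.01, all within the spread. LMO2 alone was above 0, at 0.19 in each of its probe sets.

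With WT replicate 2 as the control, 7 of the 10 genes were below 0, where 47.5% of all genes were, and CD34, ERG and LMO2 were above. The median was then -0.33, and GATA2 passed 2-fold, at -1.05. WT replicate 1 serves both as the control of the IFN-gamma response and as a control of the JAK2 mutant, so a low or high reading of that array moves both comparisons the same way.

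**Figure D3:**
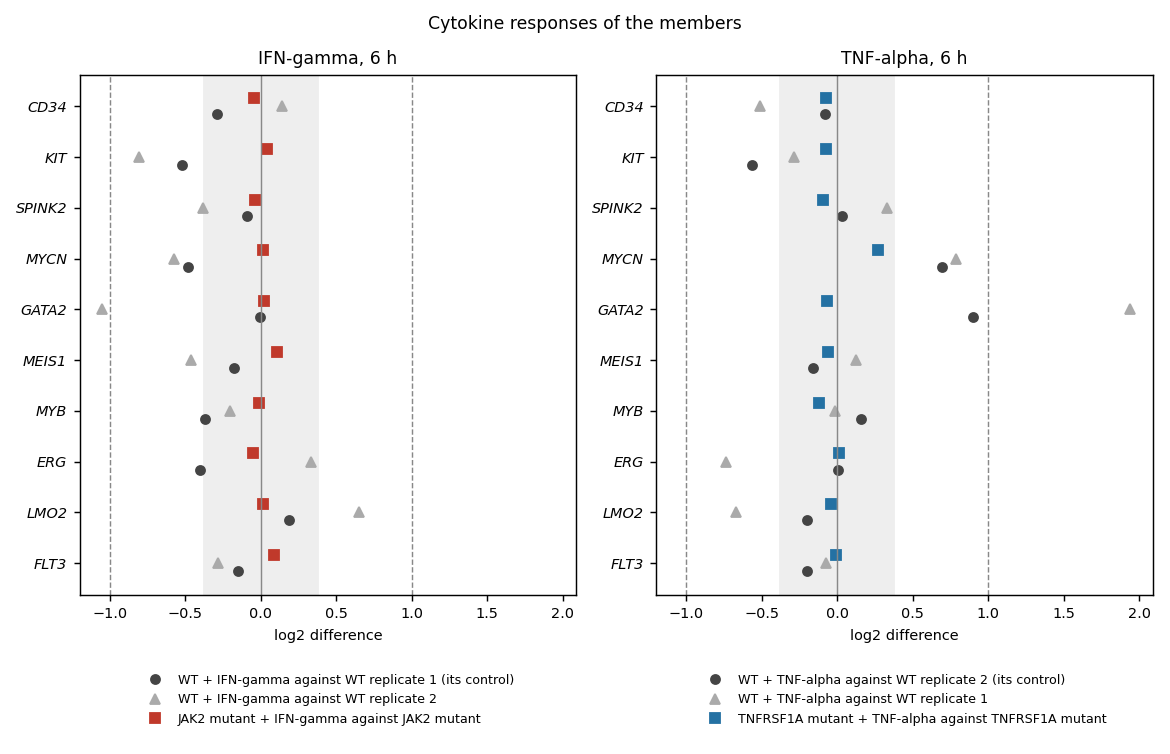
Log2 difference between stimulated and unstimulated cells (horizontal axis) for each gene with IFN-gamma (left) and TNF-alpha (right), with dark circles for WT against its own control, light triangles for WT against the other WT array and coloured squares for the mutant. The grey band is the spread of 0.38 to either side and dashed lines mark 2-fold; the mutant values lie between -0.05 and 0.11 on the left and between -0.12 and 0.27 on the right.

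With TNF-alpha in WT, 0 of the 10 genes were called against WT replicate 2, where 0.321% of all genes were, and the median was -0.04. GATA2, the zinc finger factor that stem cells need for survival, had the highest value. Its log2 level was 12.34 in WT replicate 2 and 13.24 with TNF-alpha, against 12.05 and 11.99 in the TNFRSF1A mutant without and with TNF-alpha. In intensity this was 5175 and 9659 in WT against 4247 and 4059 in the mutant. The difference was 0.90 in WT, just short of 2-fold, and -0.07 in the mutant. The next 2 GATA2 probe sets by level passed 2-fold in WT, at 1.03 and 1.02, and the fourth gave 0.68, while these 3 gave 0.08, 0.04 and -0.36 in the mutant. On all 6 GATA2 probe sets the WT array with TNF-alpha was the highest of the 8, the sixth being in the background range throughout. Against WT replicate 1 the GATA2 value was 1.94.

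MYCN had 0.70 with TNF-alpha in WT and 0.27 in the TNFRSF1A mutant, and its next probe set gave -0.05 in both. KIT had -0.57 in WT, from 8.23 to 7.66, and -0.07 in the mutant. Its value with TNF-alpha was thus close to its value with IFN-gamma, -0.52, and these 2 comparisons share no array. Against WT replicate 1 KIT had -0.29 with TNF-alpha. The 7 other genes lay between -0.20 and 0.16 in WT. In the TNFRSF1A mutant 0 of the 10 were called, where 0% of all genes were, and the values ran from -0.12 to 0.27.

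**Figure D4:**
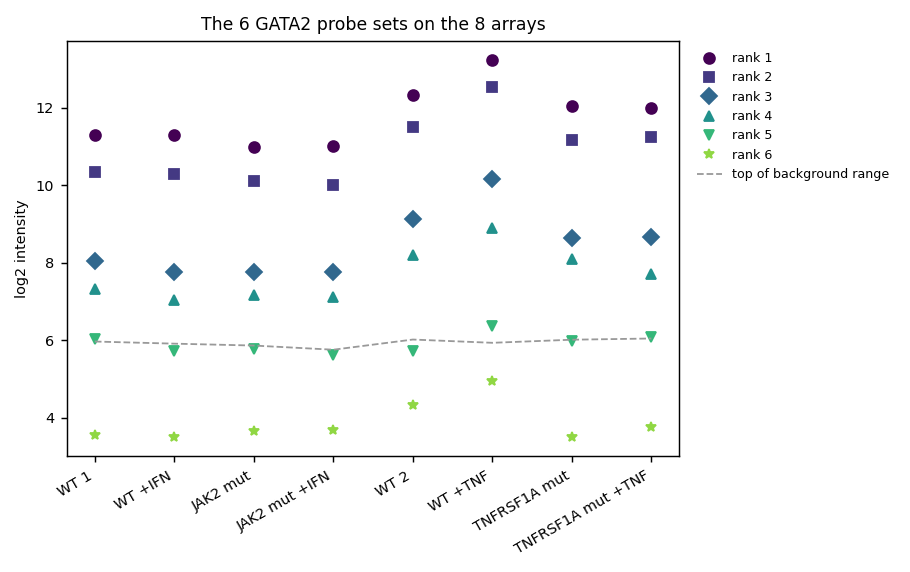
Log2 intensity (vertical axis) of the 6 GATA2 probe sets, ranked by mean level, on the 8 arrays (horizontal axis), with the top of the background range as a dashed line. The 4 brightest sets are lower on the 4 arrays of the IFN-gamma experiment than on the 4 arrays of the TNF-alpha experiment, and WT with TNF-alpha is highest in each set.

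Both unstimulated WT arrays differed in some of these genes, which bears on every comparison with WT. GATA2 was called higher in WT replicate 2, by 1.04, where 1.99% of all genes differed 2-fold between these arrays. The 4 arrays of the IFN-gamma experiment had GATA2 log2 levels of 10.98 to 11.30, and the 4 of the TNF-alpha experiment 11.99 to 13.24, so the experiments did not overlap. The JAK2 mutant was measured only in the first and the TNFRSF1A mutant only in the second. For GATA2, clone and experiment therefore cannot be told apart across experiments, and within them the unstimulated mutants differed from WT by -0.32 and -0.29.

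The ERG probe sets pointed both ways between the WT arrays by more than the spread. The 3 brightest sets were lower in WT replicate 2, by -0.74, -0.82 and -0.69, and the fifth by -0.50. The fourth was higher by 0.66, from 6.33 to 6.98, above the background range on both arrays. The sixth and seventh were higher too, by at least 0.68 and 0.16, from values in the background range. In the unstimulated JAK2 mutant the 7 brightest ERG sets lay between -0.24 and 0.27 of WT replicate 1, within the spread. The TNFRSF1A mutant had -0.19 and at least 0.31 against WT replicate 1 on the fourth and sixth sets. Which ERG transcripts each set detects was not analysed here. LMO2 was lower by -0.47 and CD34 by -0.43 in WT replicate 2, while SPINK2, MEIS1, KIT, FLT3 and MYCN were higher by 0.30, 0.29, 0.28, 0.13 and 0.09.

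**Figure D5:**
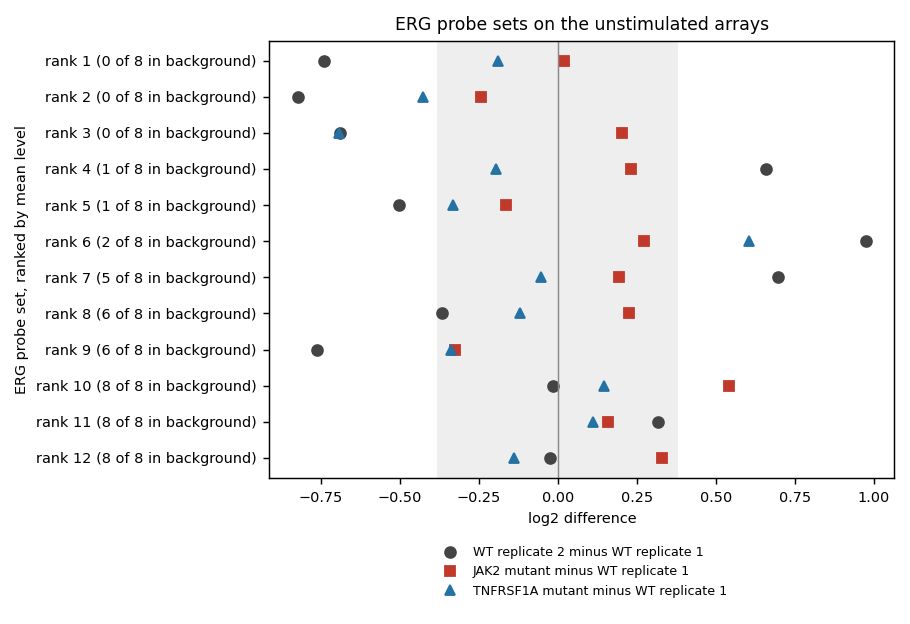
Log2 difference from WT replicate 1 (horizontal axis) of WT replicate 2, the JAK2 mutant and the TNFRSF1A mutant for the 12 ERG probe sets, ranked from the brightest downward, with the number of arrays in the background range. The grey band is the spread of 0.38 to either side; WT replicate 2 lies to the left of it in ranks 1, 2, 3, 5 and 9 and to the right of it in ranks 4, 6 and 7, and ranks 7 and 9 rest on readings in or near the background range.

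Other genes of the same programme were read from gene lists. Of 15 compared stem and progenitor surface genes, 3 were called lower in the unstimulated JAK2 mutant, against the 1.51% of all genes, and 0 higher. CXCR4, the homing receptor for CXCL12, had -2.19 and -3.92 against WT replicates 1 and 2, the interleukin 3 receptor gene IL3RA -1.16 and -1.87, and the adhesion receptor gene ADGRG1 -1.06 and -1.29. The median of this list was -0.49 against 0.04 over all genes. Of 15 further transcription factors 1 was called lower, HOPX, a small homeodomain protein, by at least 2.37 and 3.55 since the mutant was in the background range. The 5 compared partners of the network, the 11 ligands and signalling partners of KIT and FLT3, the 15 paralogs, the 12 MYC family targets and the 9 reported MYB targets had 0 calls in either mutant. Among the markers of mature cells, the neutrophil protease gene PRTN3 had 1.46 and 1.65 in the JAK2 mutant, of which at least 0.85 and 0.80 stand above the background range. The 4 compared granulocyte and monocyte genes had a median of 0.79 in that mutant and 0.12 in the TNFRSF1A mutant, and their part in the differences of the 10 genes was not tested. When TNFRSF1A was the trapped gene, 0 genes of these lists were called without TNF-alpha.

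With IFN-gamma in WT, 0 genes of these lists were called against WT replicate 1. Against replicate 2, 3 were called lower. These were CXCR4 at -1.54, HOPX at -1.40 and the leukaemia-associated gene BAALC at -1.09, the last named after its value was seen. Against replicate 1 the same 3 genes had 0.19, -0.22 and -0.16, within the spread. Replicate 2 itself read higher than replicate 1 in them, by 1.73, 1.18 and 0.94. The transcription factor lists had values mostly below 0, where 57.8% of all genes were below 0. All 5 network partners were below 0, with a median of -0.22 in WT and 0.06 in the JAK2 mutant, and 14 of the 15 further factors were, with medians of -0.25 and 0.04. Those lower by more than the spread were 4 of the 15, where 1.03% of all genes were. Against WT replicate 2 the medians were -0.11 and -0.31. Below 0 were 5 of 5 and 10 of 15, where 47.5% of all genes were. The surface genes had a median of -0.07, the KIT and FLT3 partners -0.08, the paralogs -0.07, the MYC family targets -0.05 and the reported MYB targets, which include KIT and CD34, -0.12. Against WT replicate 2 the surface genes had a median of -0.37. Of these 15, 7 were lower by more than the spread, where 10.1% of all genes were. The MYC family targets turned to 0.22 against that array. The KIT and FLT3 partners, the paralogs and the MYB targets then had medians of -0.003, -0.002 and -0.02. The marker lists of mature cells had medians from -0.19 to 0.18, over 1 to 4 genes each.

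Between the WT arrays 5 genes of these lists were called, and they are named after their values were seen. CXCR4 was higher in replicate 2 by 1.73, the chromatin reader gene MLLT3 by 1.23 and HOPX by 1.18, while MECOM, which encodes the transcription factor EVI1, was lower by -1.21 and the polyamine synthesis gene ODC1 by -1.16.

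For the 5 genes that spanned 2-fold, the genes with the most similar profile over the 8 arrays are given as a description. The part of clone and experiment in these profiles was not tested. SPINK2 was followed most closely by CD9 (Pearson r = 0.997), FHL2 and NKG7, and CD9 spanned 4.27 over the arrays. For MYCN these were CD244, the chemokine gene CCL5, which spanned 3.34, and MEX3A. GATA2 was nearest to TMEM120A, FAM117A and TBC1D10A, FLT3 to FOXJ2, DNM3 and PLEKHG4, and KIT to SEC62, INPP5D and ATP6V1H, of which SEC62 spanned only 0.17.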

How the data were processed

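RNA of KBM7 cells was hybridised to Affymetrix arrays, 1 per sample. The authors deposited 1 normalized intensity for each of 49395 probe sets. The submitters' processing notes name RMA and Expression Console 1.1; that the scale is linear was inferred from the values. RMA makes array distributions equal, so a shift of most genes would not be seen.

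Log2 of the intensity was taken without a pseudocount. Symbols were updated through gene identifiers against RefSeq (GRCh38.p14), and 1832 probe sets with several genes were left out. Members and gene lists were chosen with earlier results of these data known, so their counts and medians are descriptions. Named beside the members were list genes called with IFN-gamma in WT or in an unstimulated mutant, up to 4 per direction, and the 3 most correlated genes of each member spanning 2-fold.

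Each comparison is a difference of 2 arrays, and the number of arrays limits its precision. Fits used limma 3.58.1 in R 4.3.3 with Benjamini-Hochberg adjustment over 11529 genes and a threshold of 0.05, and were tested on simulated data. The simulated data held independent noise and set changes in the JAK2 mutant arrays. They had no experiment or cytokine effects, so they cannot show how these enter the fits. Residual degrees of freedom were 1 for the 7 conditions and 3 for genotype plus cytokine. P-values measure only the spread between these arrays, which may be technical. Alternatives were these fits, folds of 1.5 and 3, a level filter of 8 or none, means of probe sets, dropping _x_at and _s_at sets, loess (span 0.3), a further quantile normalization, and either WT array or their mean as control. Background bounds were added after the data were seen. One further promoter motif is not reported here.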

Additional observations from a re-analysis of the deposited data

Results flagged for a closer look

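In 3 cases the response had opposite signs in WT and in the matching mutant, and the pair lay further apart than the spread, with 1 array per condition. KIT had -0.52 with IFN-gamma in WT and 0.04 in the JAK2 mutant. MYCN had -0.48 and 0.02 on the same arrays, with WT after IFN-gamma and both mutant arrays in the background range. The next brightest MYCN set gave -0.20 and 0.11 there, both within the spread. GATA2 had 0.90 with TNF-alpha in WT and -0.07 in the TNFRSF1A mutant. A test of each difference exists only in the 7-condition limma fit, where none of these genes was called. That fit has 1 array in each condition but unstimulated WT, so it cannot decide whether the responses differ. With the mean of both WT arrays as control, its differences were -0.70 for KIT and 1.49 for GATA2. No fitted size is given for MYCN, with its readings in the background range.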

How the results depend on the processing

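Across the alternatives, the 101 medians over the 10 genes moved by less than the spread, as did 941 of 965 values of single genes, while 24 moved further. Fold thresholds and level filters cannot change the value of a single gene, so those settings count as unmoved by construction. The spread of 0.38 also exceeds the size of each main median, so a median could change sign and still count as unmoved. No gene called 2-fold changed sign, but 35 values of genes that were not called did, 5 of them by more than the spread, such as ERG with IFN-gamma in WT, at 0.33 against WT replicate 2. Counts of called genes moved as follows. The IFN-gamma response in WT went from 0 to 1 (GATA2) without WT replicate 1 and was 0 without replicate 2. The TNF-alpha response in WT went from 0 to 2 at 1.5-fold (MYCN, GATA2), to 1 (GATA2) without WT replicate 2 or with the mean of both, and was 0 without replicate 1. The unstimulated JAK2 mutant went from 2 to 1 (SPINK2) with a level filter of 8, with means of probe sets or with the background bound, to 0 in the limma fit of 7 conditions, to 3 at 1.5-fold (with KIT) and to 3 without WT replicate 1 (with GATA2), and was 2 without replicate 2. With IFN-gamma it went from 2 to 1 (SPINK2) at 3-fold and under the same filter, means and bound, and to 3 at 1.5-fold (with MYB). The unstimulated TNFRSF1A mutant went from 0 to 2 at 1.5-fold (MYCN, FLT3), to 1 (FLT3) without WT replicate 2, with the mean of both or in the limma fit of genotype plus cytokine, and was 0 without replicate 1. With TNF-alpha it went from 2 to 4 at 1.5-fold, 0 at 3-fold and 1 (GATA2) with a level filter of 8. The WT pair went from 1 to 2 at 1.5-fold (GATA2, ERG) and to 0 at 3-fold or with means of probe sets. Over all genes, calls rose from 70 to 271 for IFN-gamma in WT without WT replicate 1 and from 37 to 243 for TNF-alpha without replicate 2. No paired analysis was possible because the groups share fewer than 2 replicate numbers. Low signal over background limits MYCN.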
